A study of Mus musculus and Rattus norvegicus with 51 samples.

Results

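Fibronectin and a set of matricellular proteins, which are secreted into the extracellular matrix and act on cells there, were described from 9 listed genes: Fn1, Thbs1, Thbs2, Thbs3, Sparc, Spon1, Spon2, Postn and Tnc. The genes were taken by symbol, and all 9 of 9 were found in each of the 3 tables of read counts, which hold 17327, 24421 and 24982 genes. The series asks how forms of HMGB1, a nuclear DNA-binding protein released by stressed and dying cells, bear on the build-up and the resolution of liver fibrosis. It holds 51 RNA-seq libraries in 16 groups.

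HSC-T6 cells, a rat line of hepatic stellate cells with the genotype label WT, were kept for 6 h with BSA, [H] HMGB1, [O] HMGB1 or [SO3] HMGB1, with 3 libraries in each group. The labels do not spell out these 3 bracketed forms, nor MO or Ab. Whole livers of male WT mice were collected after 4 weeks of CCl4, a toxin that scars the liver, together with BSA, [H] HMGB1 or [O] HMGB1. Further WT livers were collected in resolution, labelled 1 week, with BSA, [SO3] HMGB1 or HMGB1 Ab, and each of these 6 groups held 3 livers. A last set of male livers was collected at 4 weeks after MO, the injection given in place of CCl4, or after CCl4. These came from WT mice without a construct on the label (3 MO and 4 CCl4 livers), and from Hmgb1ΔHepΔMye knockout mice given WT HMGB1 (3 and 4) or Δ[O] HMGB1 (3 and 4). The submitters' name for this set includes AAV8, without saying which mice it concerns. Both knockout sets carried the same deletion, so no knockout liver without an HMGB1 construct was analysed here. The labels do not name the drivers of the deletion, the doses or the ages, and do not say whether numbered samples were separate animals or cultures.

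Fibronectin is laid down early in a scar and gives cells a substrate that they bind through integrins. Hepatocytes secrete a soluble form into plasma, while stellate cells and myofibroblasts assemble their own form into matrix. Matricellular proteins add little mechanical strength. They tune adhesion, growth factor activity and matrix assembly, are low in resting tissue and are known to rise in wounds and in fibrotic liver.

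Each member has a known role. Thrombospondin-1 (Thbs1) activates latent TGF-beta and binds CD47 and CD36. Thrombospondin-2 (Thbs2) shares these receptors and affects the clearance of matrix proteases, and Thbs3 encodes a thrombospondin of the second structural subgroup. Sparc encodes osteonectin, a collagen-binding protein that loosens cell adhesion. The spondins are F-spondin (Spon1), first described as a guidance protein of the nervous system, and mindin (Spon2), an integrin ligand of innate immunity. Periostin (Postn) promotes the cross-linking of collagen, and tenascin-C (Tnc) is a large glycoprotein of wounds that binds integrins and Toll-like receptor signalling complexes.

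In the mouse genome build GRCm38, which is the mm10 build that the submitters' processing notes name, the GENCODE annotation places Fn1 at chr1:71585520-71653200 on the minus strand and Tnc at chr4:63959785-64047015 on the minus strand. The thrombospondin genes lie at chr2:118111876-118127133 (Thbs1, plus strand), chr17:14665500-14694235 (Thbs2, minus strand) and chr3:89215180-89226837 (Thbs3, plus strand). Sparc lies at chr11:55394500-55423183 (minus strand) and Postn at chr3:54361109-54391037 (plus strand). Spon1 lies at chr7:113765998-114043370 (plus strand) and Spon2 at chr5:33198184-33218455 (minus strand). The 250 bases before the start site, 5′ to 3′, were read from RefSeq's promoter table of GRCm38.p6 for the 5 of 9 members it holds. They start from RefSeq's own start site, which for Sparc lies inside the span of the GENCODE gene given here, since that gene reaches further upstream. The 4 shown belong to members that rose with CCl4 in WT livers and in both knockout sets. Capitals mark a match, on either strand, to TATAAA, the core promoter element bound by TBP, or CAGAC, a SMAD-binding element that reads GTCTG on the other strand.

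Tnc (chr4:64047016-64047265, minus strand): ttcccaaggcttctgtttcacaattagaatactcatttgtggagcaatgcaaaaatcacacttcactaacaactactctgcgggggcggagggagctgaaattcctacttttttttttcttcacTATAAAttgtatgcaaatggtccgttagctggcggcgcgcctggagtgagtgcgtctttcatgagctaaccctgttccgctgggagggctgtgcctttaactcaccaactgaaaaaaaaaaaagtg
Postn (chr3:54360857-54361106, plus strand): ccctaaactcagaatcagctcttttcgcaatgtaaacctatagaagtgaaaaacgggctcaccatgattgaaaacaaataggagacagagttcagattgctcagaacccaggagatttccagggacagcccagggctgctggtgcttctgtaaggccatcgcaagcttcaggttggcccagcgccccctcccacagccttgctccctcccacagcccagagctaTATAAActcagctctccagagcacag
Thbs2 (chr17:14694263-14694512, minus strand): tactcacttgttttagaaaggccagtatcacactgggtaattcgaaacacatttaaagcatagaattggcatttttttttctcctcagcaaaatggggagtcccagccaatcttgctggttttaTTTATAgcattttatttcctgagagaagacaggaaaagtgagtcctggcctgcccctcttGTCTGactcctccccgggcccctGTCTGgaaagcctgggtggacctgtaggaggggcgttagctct
Sparc (chr11:55420081-55420330, minus strand): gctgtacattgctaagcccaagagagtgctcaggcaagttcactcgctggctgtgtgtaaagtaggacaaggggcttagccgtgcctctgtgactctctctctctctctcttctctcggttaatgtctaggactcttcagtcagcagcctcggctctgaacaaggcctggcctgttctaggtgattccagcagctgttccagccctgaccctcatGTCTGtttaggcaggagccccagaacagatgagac

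TATAAA occurs in the windows of Tnc, Postn and Thbs2, and CAGAC in those of Thbs2 (2 matches) and Sparc (1 match). The TATAAA match starts at base −26 from the start site in Postn, but at −126 in both Tnc and Thbs2. In Thbs2 it lies on the other strand and reads TTTATA. Matches were counted anywhere in a window, whatever their distance from the start site. Over 32841 mouse promoter windows of the same length, 12.4% hold TATAAA and 42.2% hold CAGAC. No match was found in these 4 windows, or in that of Thbs3, to TGANTCA (an AP-1 site, in 6.75% of all windows), GGAATG (a TEAD site, in 12.6%) or the CArG box of serum response factor (in 1.47%). A match describes letters only, and none of these libraries measured binding.

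Gene counts per library came to 11752661 to 16981255 for cells, 8355714 to 16327132 for livers of the fibrosis and resolution table and 22598631 to 39323123 for MO and CCl4 livers. Levels are CPM values, which relate a gene's counts to the TMM-scaled library size, given as mean ± SD. Calls rest on edgeR's quasi-likelihood test over all genes of a table, with adjustment by Benjamini-Hochberg and a threshold of 0.05. Fold changes are on the log2 scale, with a standard error (SE). In the cells, the 12 markers of activated stellate cells and myofibroblasts summed to 47610 to 69170 CPM in every library, while 3 of 7 quiescent stellate markers (Lrat, Rgs5 and Hhip) were at 0 in every group. Hepatocyte markers summed to at most 2.04 CPM in the cells, with Ttr and Hnf4a at 0. In knockout livers with WT HMGB1, Hmgb1 stood at 63.9 to 74.7 CPM after MO and 44.9 to 74.1 CPM after CCl4. With Δ[O] HMGB1 it stood at 130.9 to 215.4 CPM after MO and 61.7 to 92.2 CPM after CCl4. WT livers held 72.8 to 77.3 CPM after MO and 57.2 to 107.1 CPM after CCl4. These counts do not separate the mouse's own transcript from a construct, so they do not check the deletion. Which genome the rat reads were counted on is not given in the sources used here, so a gene at or near 0 in the cells may be one whose reads were not assigned.

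In HSC-T6 cells the members together took 2.246% to 3.229% of all gene counts, Fn1 alone 1.192% to 1.872%. With BSA, Fn1 stood at 17350 ± 199.3 CPM, Sparc at 7692 ± 169, Thbs1 at 2995 ± 3.56 and Thbs2 at 2433 ± 17.1. Thbs3 stood at 249.8 ± 6.64 CPM, Tnc at 198.6 ± 12.1, Postn at 93.96 ± 2.29 and Spon2 at 28.9 ± 1.302. Spon1 was barely detected, at 0 to 0.171 CPM over the 12 libraries, and was not tested. These levels are not compared between genes, since no rat gene lengths were used. All 3 HMGB1 comparisons share the BSA libraries.

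**Figure D1:**
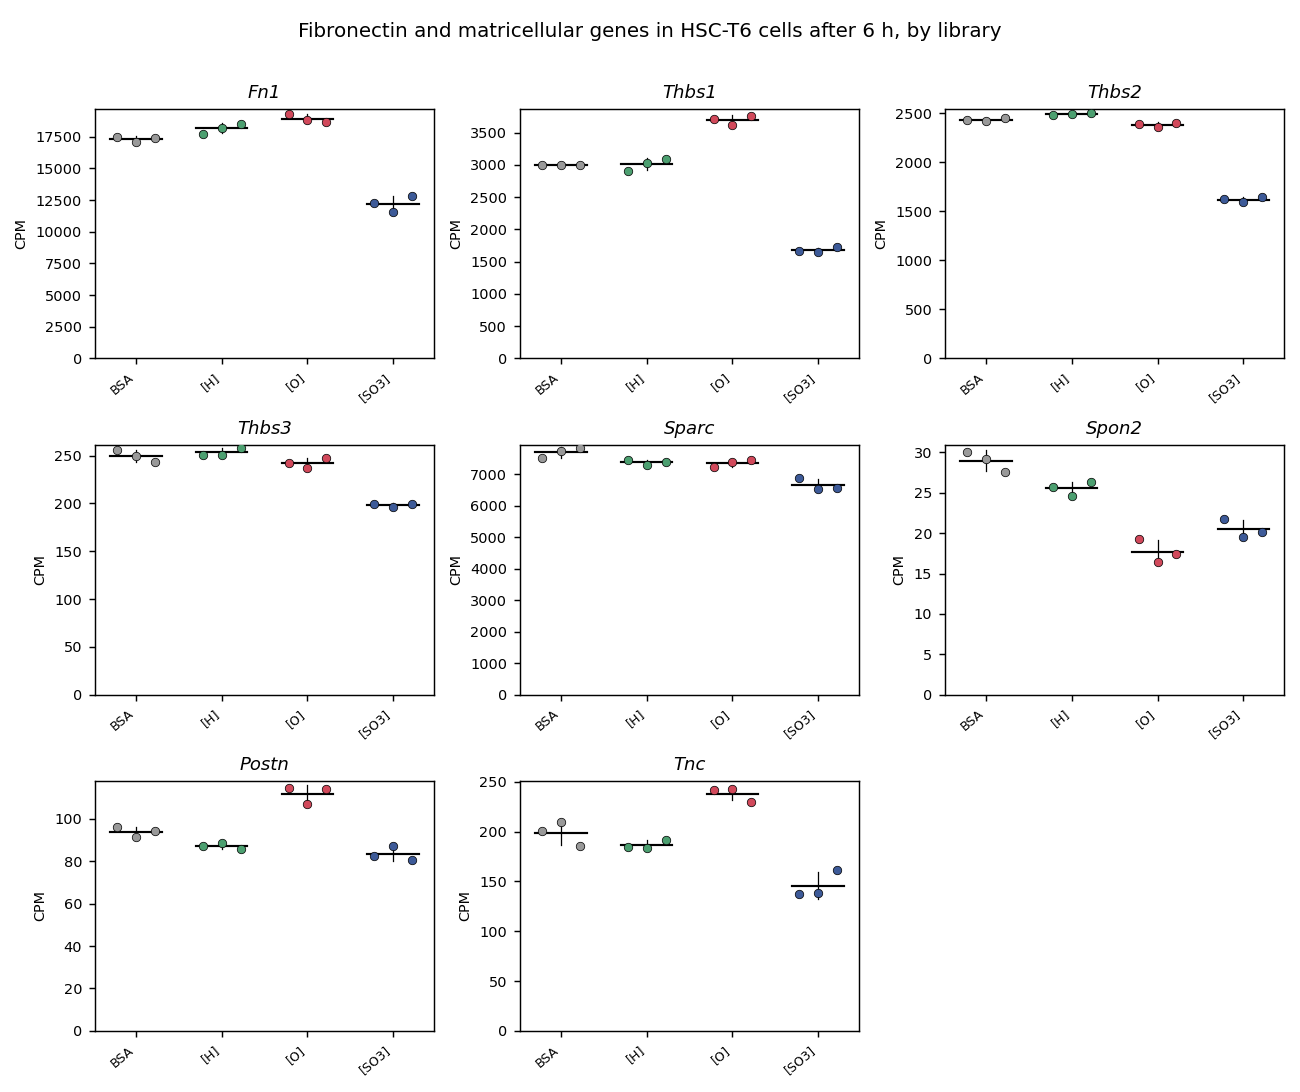
Level of 8 members in HSC-T6 cells (y axis, CPM from 0) by treatment (x axis), 1 point per library, with the mean (bar) and SD (line) of 3 libraries. With [SO3] HMGB1 the 3 Thbs1 libraries sit between 1646 and 1722 CPM, below the 2991 to 2998 CPM of the BSA libraries, and with [O] HMGB1 between 3624 and 3753 CPM, above them.

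[H] HMGB1 left no tested member past the threshold. Of the 8 members, 0 were called, while 0.316% of the 10140 genes tested were called higher and 0.483% lower. By DESeq2 also 0 members were called. At an unadjusted p under 0.05, which 1713 of the 10140 genes passed, edgeR counted 2 members. These were Spon2, at 25.7, 24.6 and 26.3 CPM against 30.1, 29.2 and 27.5 CPM with BSA (log2 −0.18, adjusted p = 0.178), and Postn, at 87.3, 88.8 and 85.8 CPM against 96.1, 91.6 and 94.2 CPM (log2 −0.11, adjusted p = 0.235). Spon2, Postn and Sparc lay below the BSA libraries without overlap, as did 10.7% of all genes, and Fn1 and Thbs2 lay above them, as did 13.7%. For Fn1 the interval of the log2 change ran from -0.00311 to 0.13 and for Thbs1 from −0.06 to 0.07.

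[O] HMGB1 raised the genes of fibronectin, thrombospondin-1, periostin and tenascin-C by small steps and lowered that of mindin. Of the 8 tested members 4 were called higher, beside 23.7% of all genes, and 1 lower, beside 20.2%, so the share of members called lies in a comparison in which 43.9% of all genes were called. Thbs1 stood at 3717, 3624 and 3753 CPM against 2995, 2998 and 2991 CPM with BSA (log2 0.30, SE 0.0313, adjusted p = 1.3e-08). Every [O] library lay above every BSA library for Thbs1. Fn1, the fibronectin gene, stood at 19330, 18810 and 18650 CPM against 17500, 17120 and 17430 CPM (log2 0.13, SE 0.0331, adjusted p = 0.00329). That difference of 9.1% also separated the groups, but with library totals as the only scaling it was log2 0.07 with an adjusted p of 0.053. Postn stood at 114.5, 107.2 and 114.2 CPM against 96.1, 91.6 and 94.2 CPM (log2 0.25, SE 0.0445, adjusted p = 5.02e-05). Tnc, the tenascin-C gene, stood at 242.3, 242.5 and 230.3 CPM against 200.9, 209.5 and 185.5 CPM (log2 0.26, SE 0.053, adjusted p = 0.000291). Without overlap, 4 of 8 members lay above the BSA libraries, beside 26.9% of all genes, and 3 lay below (Spon2, Sparc and Thbs2), beside 23.9%. Spon2 moved the other way, at 19.3, 16.5 and 17.4 CPM against 30.1, 29.2 and 27.5 CPM (log2 −0.71, SE 0.0723, adjusted p = 1.11e-08), and its fall was the largest change among the members in this comparison.

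The remaining thrombospondins and Sparc did not pass the test with [O] HMGB1. Thbs2 stood at log2 −0.03 (95% interval −0.09 to 0.03), Thbs3 at −0.04 (−0.12 to 0.03) and Sparc at −0.07 (-0.1279 to -0.002275, adjusted p = 0.0861). With library totals as the only scaling all 3 were called lower (log2 −0.08, −0.10 and −0.12, adjusted p = 0.0161, 0.0355 and 0.0015), a setting in which the median of all genes stood at −0.06.

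[SO3] HMGB1 lowered all 8 tested members, beside 32.2% of all genes called lower, and raised 0, beside 31.1%. Thbs1 fell most, to 1668, 1646 and 1722 CPM (log2 −0.84, SE 0.0316, adjusted p = 5.1e-17). Thbs2 stood at 1622, 1591 and 1643 CPM against 2431, 2416 and 2451 CPM with BSA (log2 −0.59, SE 0.0289, adjusted p = 8.74e-15). Fn1 stood at 12250, 11550 and 12790 CPM, which is 29.7% below BSA (log2 −0.51, SE 0.0332, adjusted p = 2.04e-12). In these 3 genes, as in the other 5, every [SO3] library lay below every BSA library, which held for 32.5% of all genes, while 32.1% lay above without overlap.

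Spon2 stood at 20.5 ± 1.16 CPM (log2 −0.50, adjusted p = 1.04e-06) and Tnc at 145.8 ± 13.3 CPM (log2 −0.45, adjusted p = 1.46e-07). Thbs3 stood at 198.2 ± 2.07 CPM (log2 −0.33, adjusted p = 2.9e-08). Sparc and Postn moved least, to 6655 ± 203 CPM (log2 −0.21, adjusted p = 1.94e-06) and 83.5 ± 3.35 CPM (log2 −0.17, adjusted p = 0.00204). The median log2 change of the 8 members was −0.47, against −0.02 over all genes.

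**Figure D2:**
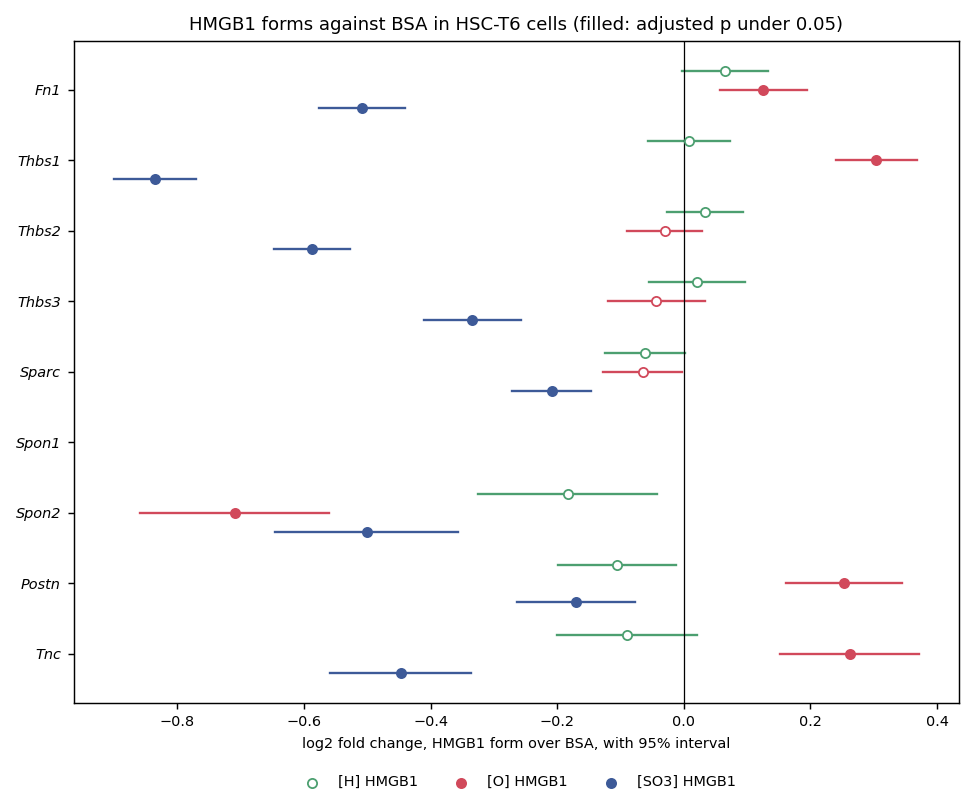
Log2 fold change of each member against BSA (x axis) in HSC-T6 cells for the 3 HMGB1 forms, with the 95% interval as a line and filled points for an adjusted p under 0.05; Spon1 has no point because it was not tested. All 8 [SO3] points lie left of 0, between −0.84 for Thbs1 and −0.17 for Postn, whereas 4 of the 8 [O] points are filled on the right.

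Set against each other directly, [O] and [SO3] HMGB1 differed for every tested member. From [O] to [SO3] HMGB1, 7 of 8 members were lower, beside 30.0% of all genes, and 1 higher, beside 29.1%, so that 59.2% of all genes were called. The same 7 and 1 members did not overlap, beside 31.7% and 30.6% of all genes. The largest differences were those of Thbs1 (log2 −1.14, SE 0.0317, adjusted p = 5.91e-20), Tnc (−0.71, SE 0.0533, adjusted p = 5.06e-11) and Fn1 (−0.63, SE 0.0332, adjusted p = 2.15e-14). Thbs2 differed by log2 −0.56, Postn by −0.42 and Thbs3 by −0.29. Sparc differed by −0.14 (adjusted p = 0.000252), and by −0.06 (adjusted p = 0.0643) with library totals as the only scaling. Spon2 went the other way, from 17.7 ± 1.46 CPM in the [O] cells to 20.5 ± 1.16 CPM in the [SO3] cells (log2 0.21, adjusted p = 0.0178). That call was lost without [O] library 2 (adjusted p = 0.106) or 3 (0.0551), or without [SO3] library 1 (0.0947).

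Several receptors of these proteins differed in the cells too. Of the 11 tested genes of the receptor list, which holds integrins, syndecans, Cd47, Cd36, Lrp1, Stab1 and Ddr2, 7 were called higher and 3 lower with [O] HMGB1, and 2 higher and 6 lower with [SO3] HMGB1. Over all genes 23.7% were higher and 20.2% lower with [O], and 31.1% and 32.2% with [SO3] HMGB1. The heparan sulphate proteoglycan syndecan-4 gene Sdc4 rose from 76.5 ± 3.36 to 212.6 ± 5.50 CPM with [O] (log2 1.48, adjusted p = 4.45e-19) and to 138.5 ± 3.51 CPM with [SO3] HMGB1 (log2 0.86, adjusted p = 4.48e-14). Itga5, whose product is the alpha chain of the main fibronectin receptor, rose with [O] HMGB1 from 344.1 ± 15.3 to 598.5 ± 26.2 CPM (log2 0.80, adjusted p = 1.13e-14). With [SO3] HMGB1, Lrp1, an endocytic receptor for thrombospondins, fell from 3045 ± 233 to 2052 ± 171 CPM (log2 −0.57, adjusted p = 2.57e-06). No receptor gene was called with [H] HMGB1.

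Of 12 tested genes of other matricellular proteins, 3 were called higher and 4 lower with [O] HMGB1, and 2 higher and 6 lower with [SO3] HMGB1. Cyr61 (CCN1), an integrin-binding matricellular protein gene, stood at 196.9 ± 11.9 CPM with BSA, 338.3 ± 4.36 with [O] (log2 0.78, adjusted p = 1.19e-12) and 162.4 ± 4.80 with [H] HMGB1 (log2 −0.28, adjusted p = 0.006). Wisp2 (CCN5) fell from 283.5 ± 6.34 to 138.4 ± 6.65 CPM with [O] (log2 −1.03, adjusted p = 8.07e-16) and to 184.3 ± 11.1 CPM with [SO3] HMGB1 (log2 −0.62, adjusted p = 1.28e-11). Among 10 tested TGF-beta ligands and targets, 3 rose and 5 fell with [O] HMGB1, and 5 rose and 4 fell with [SO3] HMGB1. Beside both lists, 23.7% of all genes were called higher and 20.2% lower with [O] HMGB1. With [SO3] HMGB1 these shares were 31.1% and 32.2%.

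Other marker lists moved in the [SO3] cells beside the members. Cell cycle markers summed to 597.5 to 633.9 CPM with [SO3] HMGB1 against 1208 to 1318 CPM with BSA, and 8 of 8 were called lower. The sum of the stellate and myofibroblast markers was 47610 to 50800 CPM against 65760 to 69170 CPM, and 7 of its 12 genes were called lower. Of all genes, 32.2% were called lower in this comparison. The part of either in the members' fall was not tested.

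In whole liver, levels per length allow genes to be compared. Divided by the merged exon length of each gene, Fn1 stood at 263 ± 55.2 CPM per kb in WT MO livers, Sparc at 15.4 ± 5.38, Postn at 3.53 ± 0.383 and Spon2 at 1.37 ± 0.415 CPM per kb. Thbs2 (0.31 ± 0.0999), Thbs3 (0.158 ± 0.0252), Thbs1 (0.146 ± 0.0525), Spon1 (0.0733 ± 0.0235) and Tnc (0.0653 ± 0.0347 CPM per kb) were lower still. The steps from Fn1 down to Thbs2 exceed the SDs of these 3 livers, while Thbs3 and Thbs1, and Spon1 and Tnc, lie within each other's SD. In a bulk liver library fewer cells of a type and less RNA per cell cannot be told apart.

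CCl4 raised most matricellular genes in WT liver, while the fibronectin gene did not pass the test there. In WT livers 7 of the 9 members were called higher with CCl4 than with MO, beside 22.8% of all 14129 genes tested, and 0 were called lower. With library totals as the only scaling, the 3219 higher and 3323 lower genes became 6862 and 1195. The median log2 change of the members was 1.58, against -0.00439 over all genes. Tnc stood at 0.247, 0.492 and 0.785 CPM with MO and at 19.3, 38.3, 23.6 and 9.26 CPM with CCl4 (log2 5.49, SE 0.677, adjusted p = 5.43e-06). Thbs1 stood at 0.535, 1.15 and 0.878 CPM with MO and at 21.5, 75.2, 20.2 and 8.62 CPM with CCl4 (log2 5.23, SE 0.683, adjusted p = 1.01e-05). For both genes the lowest CCl4 liver lay far above the highest MO liver, and CCl4 liver 2 was the highest of its group.

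Sparc stood at 29.3, 38.3 and 58.0 CPM with MO and at 158.0, 164.8, 173.6 and 100.2 CPM with CCl4 (log2 1.83, SE 0.254, adjusted p = 1.15e-05). Postn, the periostin gene, stood at 11.97, 10.2 and 12.7 CPM against 21.3, 24.7, 29.3 and 21.02 CPM (log2 1.05, SE 0.238, adjusted p = 0.00132). Neither gene's groups overlapped, and the CCl4 group of Sparc was lowest in liver 4. Thbs2 (log2 1.77, adjusted p = 2.46e-05), Spon1 (1.58, adjusted p = 0.000967) and Spon2 (1.41, adjusted p = 0.00025) rose as well, from 1.83 ± 0.589, 0.761 ± 0.244 and 2.81 ± 0.849 CPM.

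Fn1 and Thbs3 did not pass the test in WT livers. Fn1 stood at 2694, 2248 and 1758 CPM with MO and at 2724, 2832, 2523 and 2818 CPM with CCl4 (log2 0.29, 95% interval −0.22 to 0.79, adjusted p = 0.352), and its groups overlapped. Thbs3 stood at 0.504 ± 0.0803 against 0.973 ± 0.324 CPM (log2 0.96, adjusted p = 0.0548) and was called by DESeq2 (adjusted p = 0.0436), with RLE size factors (0.0477), with only these groups in the fit (0.0463), and without CCl4 liver 3 (0.0322) or 4 (0.0369). The scaling bears on both: with library totals as the only scaling the median of all genes moved to log2 0.45, Fn1 stood at 0.75 (adjusted p = 0.0156) and Thbs3 at 1.44 (adjusted p = 0.00512).

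**Figure D3:**
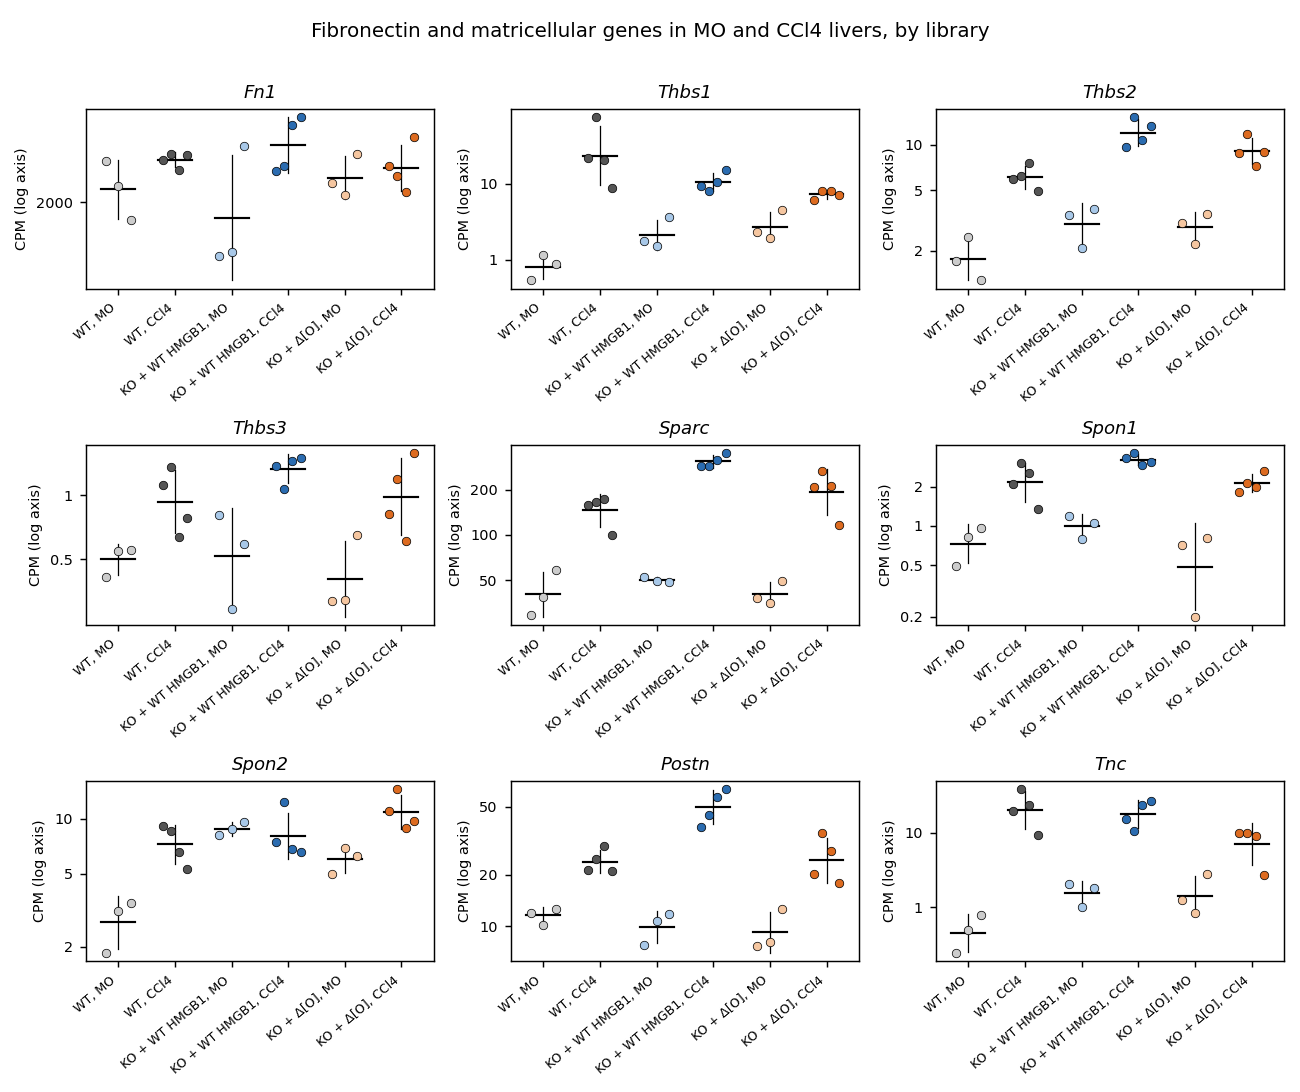
Level of each of the 9 members (y axis, CPM on a log axis) in MO and CCl4 livers by group (x axis), 1 point per liver; the bar is the mean and the line the SD of log2 CPM over 3 MO or 4 CCl4 livers. Tnc in WT livers runs from 0.247 to 0.785 CPM with MO and from 9.26 to 38.3 CPM with CCl4, whereas the Fn1 groups of WT livers overlap.

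In knockout livers given WT HMGB1, CCl4 raised 8 of the 9 members, beside 23.3% of all genes, and 0 were called lower, beside 24.0%. The 3298 higher and 3387 lower genes became 5180 and 1532 when library totals were the only scaling. Sparc stood at 52.3, 49.6 and 48.6 CPM with MO and at 285.8, 287.1, 317.7 and 351.5 CPM with CCl4 (log2 2.63, SE 0.263, adjusted p = 9.58e-07). Postn stood at 7.79, 10.7 and 11.7 CPM against 37.9, 44.9, 57.2 and 63.3 CPM (log2 2.33, SE 0.247, adjusted p = 1.43e-06). Tnc stood at 2.04, 1.00 and 1.79 CPM against 15.2, 10.6, 23.6 and 26.5 CPM (log2 3.54, SE 0.566, adjusted p = 8.21e-05). In all 3 genes the CCl4 livers lay apart from the MO livers. Without overlap, 7 of 9 members were higher with CCl4, beside 24.8% of all genes, and 0 lower, beside 23.9%.

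The 3 thrombospondin genes rose in the same livers, Thbs1 from 2.28 ± 1.14 to 10.7 ± 3.02 CPM (log2 2.19, adjusted p = 0.00408), Thbs2 by log2 1.96 (adjusted p = 6.78e-06) and Thbs3 by 1.23 (adjusted p = 0.0105). Spon1 rose by 1.68 on the log2 scale (adjusted p = 0.000346). Spon2 did not follow, at 8.13, 8.78 and 9.63 CPM with MO and 7.51, 12.3, 6.87 and 6.62 CPM with CCl4 (log2 −0.09, 95% interval −0.59 to 0.42). Fn1 passed the test (3080 ± 615 against 1920 ± 944 CPM, log2 0.68, adjusted p = 0.0279), but MO liver 3 (3010 CPM) lay within the CCl4 range. The Fn1 call was lost without MO liver 1 (adjusted p = 0.159) or 2 (0.156), or without CCl4 liver 4 (0.0582) or 5 (0.0706). It was also lost with only these groups in the fit (log2 0.69, adjusted p = 0.0778) and with the replicate number as a block (log2 0.49, adjusted p = 0.126). Thbs3 lost its call without MO liver 2 (0.0668).

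In knockout livers given Δ[O] HMGB1, 7 of the 9 members were called higher with CCl4, beside 12.9% of all genes, and 0 lower, beside 11.4%. Scaled by library totals alone, the 1818 higher and 1607 lower genes became 2557 and 684. Sparc stood at 38.1, 35.0 and 49.5 CPM with MO and at 207.2, 265.5, 212.5 and 116.5 CPM with CCl4 (log2 2.29, SE 0.259, adjusted p = 6.63e-06). Tnc stood at 1.24, 0.844 and 2.78 CPM against 9.98, 9.99, 9.09 and 2.72 CPM (log2 2.27, SE 0.547, adjusted p = 0.0058), where CCl4 liver 5 lay inside the MO range. Spon1 (log2 1.87, adjusted p = 0.000653), Thbs2 (1.65, adjusted p = 0.000101), Postn (1.42, adjusted p = 0.000304), Thbs3 (1.24, adjusted p = 0.025) and Spon2 (0.87, adjusted p = 0.0148) rose too. Thbs1 did not pass (7.29 ± 0.925 against 2.91 ± 1.40 CPM, log2 1.31, adjusted p = 0.0907), although its groups did not overlap, as in 6 of 9 members, beside 14.6% of all genes. It was called with only these groups in the fit (adjusted p = 0.0179). Fn1 stood at log2 0.10 (95% interval −0.40 to 0.61).

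The calls of Thbs3 and Spon2 in the Δ[O] livers were lost in several settings, with the direction kept. Thbs3 lost its call without MO liver 1 (log2 1.06, adjusted p = 0.106) or 2 (1.08, 0.11), and without CCl4 liver 2 (1.19, 0.055) or 5 (0.99, 0.06). It also lost it with only these groups in the fit (1.29, adjusted p = 0.0764) and with the replicate number as a block (1.05, 0.0663). Spon2 lost its call without MO liver 1 (0.75, adjusted p = 0.0757) or CCl4 liver 2 (0.74, 0.0516).

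**Figure D4:**
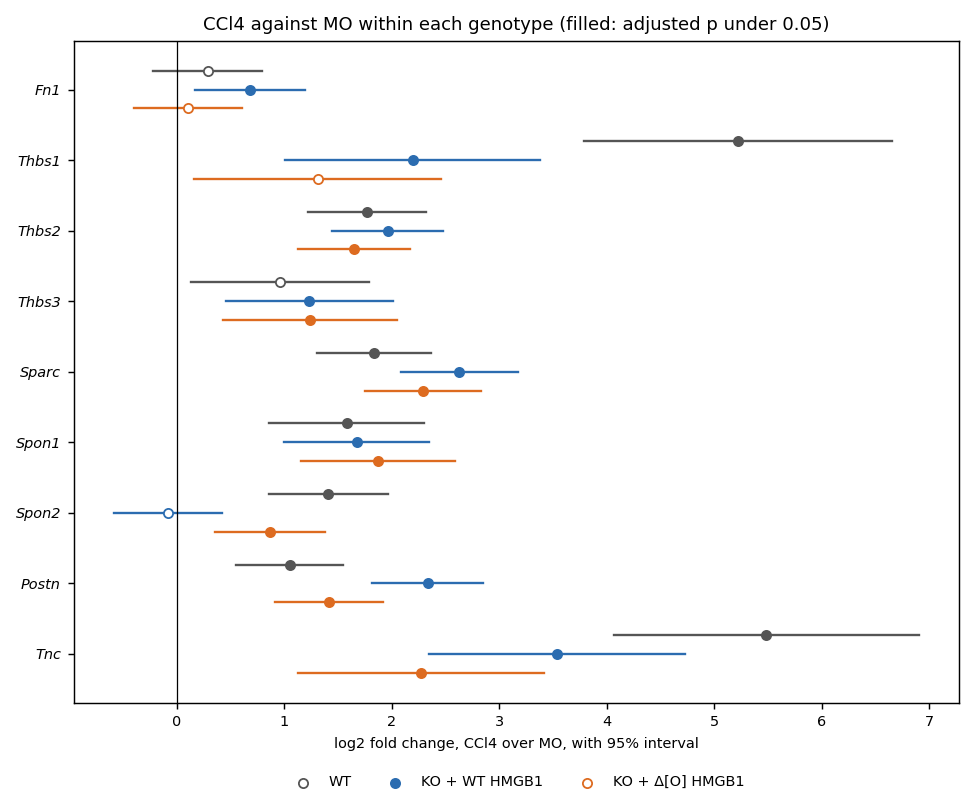
Log2 fold change of each member from MO to CCl4 (x axis) in WT livers, knockout livers with WT HMGB1 and knockout livers with Δ[O] HMGB1, with the 95% interval as a line and filled points for an adjusted p under 0.05. The Fn1 points lie between 0.10 and 0.68, while all 3 Sparc points lie between 1.83 and 2.63 and the WT points of Tnc and Thbs1 lie above 5.

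Marker lists of other cells moved with CCl4 in the same libraries. The stellate and myofibroblast markers summed to 40.2 to 100.8 CPM in WT MO livers and 354.9 to 825.8 CPM in WT CCl4 livers, and 11 of 12 were called higher. The hepatocyte markers summed to 146200 to 169900 and 81690 to 119400 CPM in these groups, and 6 of 8 were called lower. Of all genes, 22.8% were called higher and 23.5% lower in WT livers. In knockout livers with WT HMGB1 the myofibroblast sum ran from 85.1 to 119.6 CPM with MO and from 1485 to 2192 CPM with CCl4, and with Δ[O] HMGB1 from 64.6 to 136.2 and from 521.3 to 1306 CPM. The part of these shifts in the members' rise was not tested.

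Receptors and related genes rose beside the members. In WT, WT HMGB1 and Δ[O] HMGB1 livers, CCl4 raised 9, 9 and 7 of 17 tested receptor genes and lowered 1 in each. Over all genes 22.8%, 23.3% and 12.9% were called higher and 23.5%, 24.0% and 11.4% lower, shares that bear on all 3 lists given here. Itga8, an integrin chain that pairs to bind fibronectin, rose in all 3 sets, by log2 1.83 (adjusted p = 2.97e-05), 2.22 (3.9e-06) and 1.99 (3.15e-05). Ddr2, a collagen-binding receptor kinase gene of the same list, rose by 0.90 (0.00231), 1.33 (6.26e-05) and 0.78 (0.011). Of 14 tested genes of other matricellular proteins, 9, 8 and 7 were called higher and 0, 1 and 0 lower, the higher among them Sparcl1, the closest relative of Sparc, by log2 2.67 (5.37e-06), 2.03 (5.92e-05) and 1.53 (0.00179). Of 12 TGF-beta ligands and targets, 9, 10 and 8 were called higher and 0 lower, including Tgfb3 by log2 2.23 (8.27e-05), 2.17 (9.26e-05) and 1.74 (0.00187).

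The Δ[O] construct was set against WT HMGB1 in the CCl4 livers of the knockout. The periostin gene was the 1 member of 9 that was called, and it was lower, beside 2.19% of all genes called lower. Postn stood at 20.3, 35.1, 27.6 and 17.9 CPM with Δ[O] HMGB1 and at 37.9, 44.9, 57.2 and 63.3 CPM with WT HMGB1 (log2 −1.01, SE 0.211, adjusted p = 0.0142). Its groups did not overlap. The call was lost without WT HMGB1 liver 4 (adjusted p = 0.0667) or 5 (0.0838), without Δ[O] liver 1 (0.0833), 3 (0.0568) or 5 (0.0502), and with only these groups in the fit (0.0704).

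Sparc, Thbs1, Spon1 and Tnc were also lower in every Δ[O] liver than in every WT HMGB1 liver, which with Postn makes 5 of 9 members, beside 7.07% of all genes. None of these 4 was called: Tnc stood at 7.94 ± 3.51 against 18.95 ± 7.36 CPM (log2 −1.25, adjusted p = 0.17), Sparc at 200.4 ± 61.8 against 310.5 ± 31.0 CPM (log2 −0.63, adjusted p = 0.16), Spon1 at log2 −0.60 (adjusted p = 0.306) and Thbs1 at −0.55 (adjusted p = 0.646). Thbs2 (−0.41), Thbs3 (−0.37) and Fn1 (−0.25) overlapped between the groups, and Spon2 stood higher by log2 0.41 (adjusted p = 0.41). Among the receptors, Itga4, the alpha chain of a fibronectin-binding integrin of white blood cells, was lower with Δ[O] HMGB1 (8.39 ± 2.14 against 19.8 ± 2.86 CPM, log2 −1.23, adjusted p = 0.0076), as was the ligand gene Tgfb1 (18.4 ± 3.35 against 30.01 ± 5.39 CPM, log2 −0.70, adjusted p = 0.0301). Kupffer cell markers summed to 314.9 to 718.5 CPM with Δ[O] and 1012 to 1073 CPM with WT HMGB1, and the myofibroblast sums did not overlap either; their part in the lower Postn was not tested.

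No difference in the CCl4 response between the constructs passed the test. For it, edgeR called 0 of 9 members and 0% of all genes, and DESeq2 called 0 members and 85 genes. At an unadjusted p under 0.05 edgeR counted 2 members, beside 2098 of 14129 genes. The estimates were log2 −0.92 for Postn (95% interval −1.60 to −0.23, adjusted p = 0.233), 0.95 for Spon2 (0.24 to 1.67, adjusted p = 0.233), −1.27 for Tnc (−2.84 to 0.30) and −0.58 for Fn1 (−1.29 to 0.13). Without WT HMGB1 MO liver 3, which held 3010 CPM of Fn1 against 1351 and 1400 CPM in its group, Fn1 was called at log2 −1.06 (adjusted p = 0.0277).

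Knockout livers given WT HMGB1 were also set against WT livers, both after CCl4; the deletion and the construct differ together here and cannot be told apart. Sparc, Postn and Thbs2 were called higher in the knockout set, 3 of 9 members beside 15.8% of all genes, and Thbs1 was called lower, beside 13.0%. Sparc stood at 285.8, 287.1, 317.7 and 351.5 CPM against 158.0, 164.8, 173.6 and 100.2 CPM (log2 1.06, SE 0.223, adjusted p = 0.0015). Postn stood at 37.9 to 63.3 CPM against 21.02 to 29.3 CPM (log2 1.08, SE 0.211, adjusted p = 0.000845), and Thbs2 at 12.2 ± 2.51 against 6.19 ± 1.07 CPM (log2 0.98, SE 0.215, adjusted p = 0.00196). In these 3 genes the groups did not overlap, as in 17.7% of all genes upwards, and 0 members lay lower without overlap, beside 13.8%. Scaling by library totals alone turned the 2230 higher and 1839 lower genes into 2671 and 1149.

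Thbs1 stood at 9.36, 8.06, 10.4 and 14.99 CPM in the knockout set against 21.5, 75.2, 20.2 and 8.62 CPM in WT livers (log2 −1.56, SE 0.469, adjusted p = 0.0186). Its groups overlapped, and the call rested on WT liver 2: without it the difference was log2 −0.67 (adjusted p = 0.158). The call was also lost without knockout liver 3 (adjusted p = 0.0514), with only these groups in the fit (0.0507) and with the replicate number as a block (log2 −1.18, adjusted p = 0.0875). Fn1 (log2 0.18), Spon2 (0.17), Spon1 (0.52), Thbs3 (0.45) and Tnc (−0.26) did not pass. Cell cycle markers summed to 269.2 to 430.2 CPM in the knockout set and 24.8 to 78.3 CPM in WT livers, the myofibroblast markers to 1485 to 2192 and 354.9 to 825.8 CPM, and the Kupffer cell markers to 1012 to 1073 and 351 to 511.4 CPM. Their part in these differences was not tested.

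The CCl4 response of these knockout livers differed from that of WT livers for 3 members, in a test added after the data had been seen. The rise of Thbs1 was smaller in the knockout set (difference of log2 changes −3.03, SE 0.844, adjusted p = 0.0238). The response of Spon2 was lower too (−1.50, SE 0.355, adjusted p = 0.00863), beside 6.64% of all genes. Spon2 did not rise in the knockout set, at 8.33 ± 2.69 CPM with CCl4 against 8.85 ± 0.753 CPM with MO. The rise of Postn was larger (1.28, SE 0.328, adjusted p = 0.0135), beside 6.85%. With library totals as the only scaling, the 968 larger and 938 smaller responses became 529 and 1359. In the MO livers, which were not tested against each other, Spon2 stood at 8.85 ± 0.753 CPM in the knockout set and 2.81 ± 0.849 CPM in WT livers, and Thbs1 at 2.28 ± 1.14 and 0.853 ± 0.307 CPM. The Thbs1 difference lost its call without WT MO liver 1 (adjusted p = 0.0766) or knockout MO liver 3 (0.0682), and with only these groups in the fit (0.0613), and that of Postn with library totals as the only scaling (log2 1.103, adjusted p = 0.052). Fn1 gained a call without knockout MO liver 3 (log2 0.88, adjusted p = 0.0331).

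The second liver table holds WT mice in CCl4 fibrosis and in resolution. The livers numbered 2 stood apart in all 3 fibrosis groups for Thbs1. Thbs1 was at 302.4 CPM in BSA liver 2, 89.8 in [H] liver 2 and 151.6 in [O] liver 2, and between 10.98 and 23.8 CPM in the other 6 fibrosis livers. Tnc was also highest in liver 2 of each group, at 63.4, 27.4 and 56.2 CPM, against 5.60 to 31.9 CPM in the others. The Tnc value of [H] liver 2 thus lay within the range of the livers with other numbers. In BSA liver 2 the cholangiocyte markers summed to 541 CPM, against 42.4 and 58.8 CPM in the other BSA livers, and in BSA liver 3 the cell cycle markers summed to 622 CPM, against 78.1 and 9.36 CPM.

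**Figure D5:**
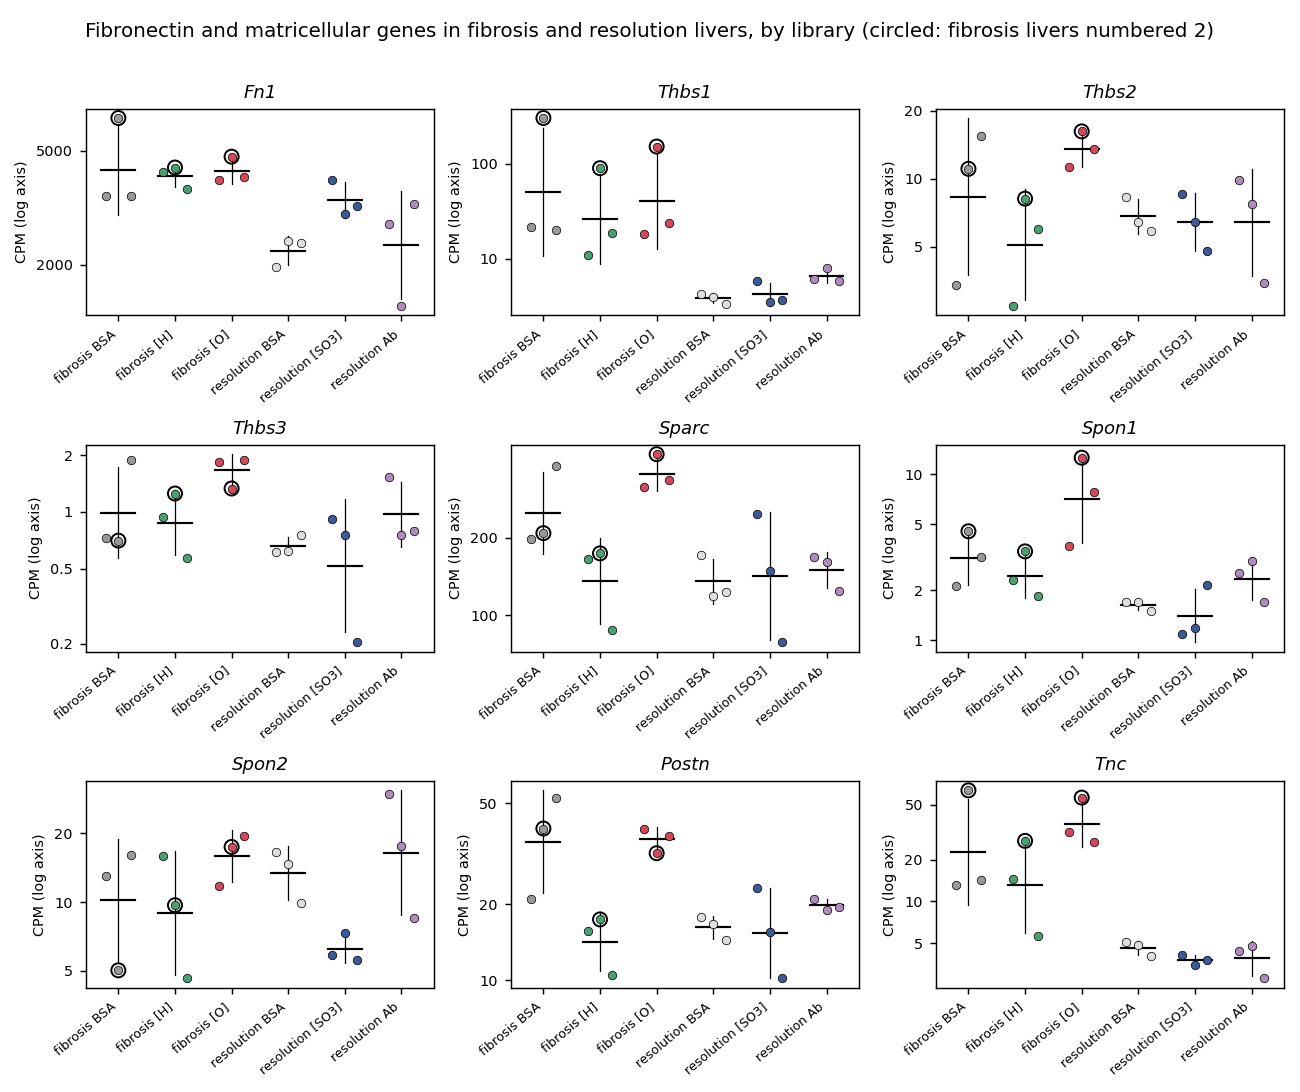
Level of each of the 9 members (y axis, CPM on a log axis) in fibrosis and resolution livers by group (x axis), 1 point per liver, with the mean (bar) and SD (line) of log2 CPM over 3 livers; circles mark the fibrosis livers numbered 2. The circled Thbs1 points sit at 302.4, 89.8 and 151.6 CPM, above all other livers, and the [O] points of Sparc (316.3 to 423.6 CPM) lie above the [H] points (87.3 to 174.2 CPM).

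No member was called for an HMGB1 form in fibrosis. With [H] HMGB1 against BSA, edgeR called 0 of 9 members and 0% of 13487 genes, and DESeq2 called 0 members and 3 genes. At an unadjusted p under 0.05 edgeR counted 2 members, beside 1448 of all genes. Postn stood at 15.7, 17.4 and 10.5 CPM with [H] HMGB1 against 20.99, 39.7 and 52.3 CPM with BSA (log2 −1.37, SE 0.312, adjusted p = 0.414). Sparc stood at 165.0, 174.2 and 87.3 CPM against 197.8, 208.8 and 382.5 CPM (log2 −0.89, SE 0.365, adjusted p = 0.427). Both were lower without overlap, as were 4.87% of all genes, and 0 members were higher, beside 3.07%. With [O] HMGB1 against BSA, edgeR called 0 members and 0% of all genes, and DESeq2 called 0 members and 5 genes. At an unadjusted p under 0.05 edgeR counted 1 member (Spon1, log2 1.297, 95% interval 0.39 to 2.20, adjusted p = 0.889), beside 727 of all genes. In that comparison 0 members were separated upwards, beside 3.17% of all genes, or downwards, beside 2.68%. Fn1 stood at 4085 ± 362 CPM with [H], 4246 ± 448 with [O] and 4482 ± 1745 CPM with BSA, differences smaller than the SD of the BSA livers.

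Between [H] and [O] HMGB1 again 0 of 9 members and 0% of all genes were called by edgeR, while DESeq2 called 3 members and 278 genes. At an unadjusted p under 0.05 edgeR counted 5 members, beside 1413 of 13487 genes. Sparc stood at 316.3, 423.6 and 335.6 CPM with [O] against 165.0, 174.2 and 87.3 CPM with [H] HMGB1 (log2 1.33, SE 0.369, adjusted p = 0.147 by edgeR and 0.0269 by DESeq2). Postn stood at 39.6, 31.8 and 37.1 CPM against 15.7, 17.4 and 10.5 CPM (log2 1.32, SE 0.311, adjusted p = 0.124 and 0.0111). Spon1 stood at 3.70, 12.6 and 7.77 CPM against 2.32, 3.43 and 1.85 CPM (log2 1.66, SE 0.43, adjusted p = 0.131 and 0.0234). With Thbs2 (log2 1.28, adjusted p = 0.309) and Thbs3 (0.86, adjusted p = 0.615), 5 of 9 members were higher in every [O] liver than in every [H] liver, beside 9.27% of all genes, and 0 were lower, beside 5.14%.

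Tnc stood at log2 1.28 (adjusted p = 0.416), Thbs1 at 0.70 (95% interval −1.36 to 2.75), Spon2 at 0.69 and Fn1 at 0.06 (−0.54 to 0.65), all with overlapping groups. Without the 3 livers numbered 2, a setting added after their values had been seen, Postn and Tnc each stood at log2 1.59. Those livers were set aside because of their Thbs1 and Tnc values, so the estimates are a description and no test. The 12 stellate and myofibroblast markers summed to 1262 to 1470 CPM with [O] and 209.9 to 445.9 CPM with [H] HMGB1, and the Kupffer cell markers to 1150 to 1303 and 563.4 to 799.2 CPM. Their part in the members' gap was not tested. Of 16 tested receptor genes, 13 other matricellular genes and 12 TGF-beta genes, 0 were called in any of these 3 comparisons.

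In resolution, no member was called for either treatment. With [SO3] HMGB1 against BSA, edgeR called 0 of 9 members and 0% of all genes, and DESeq2 called 0 members and 80 genes. At an unadjusted p under 0.05 edgeR counted 1 member, beside 812 of 13487 genes. Fn1 stood at 3951, 3013 and 3193 CPM with [SO3] HMGB1 against 1954, 2411 and 2374 CPM with BSA (log2 0.59, 95% interval -0.002643 to 1.19, adjusted p = 0.83). Spon2 stood at 5.85, 7.31 and 5.61 CPM against 16.6, 14.7 and 9.91 CPM (log2 −1.14, SE 0.493, adjusted p = 0.779). The groups of Fn1 (higher) and Spon2 (lower) did not overlap, each beside 11.1% of all genes. The other 7 members lay between log2 −0.30 (Tnc) and 0.20 (Sparc) with overlapping groups.

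With HMGB1 Ab, edgeR called 0 of 9 members and 0% of all genes, and DESeq2 called 0 members and 7 genes. At an unadjusted p under 0.05 edgeR counted 0 members, beside 279 of 13487 genes. Thbs1 stood at 6.19, 8.06 and 5.86 CPM against 4.31, 3.96 and 3.39 CPM with BSA (log2 0.77, 95% interval −1.50 to 3.04) and Postn at 21.02, 19.01 and 19.5 CPM against 17.7, 16.7 and 14.4 CPM (log2 0.28, −0.37 to 0.94). Both were higher without overlap, beside 5.52% of all genes, and 0 members were lower, beside 4.39%. For Thbs1, Thbs2, Thbs3, Spon1, Spon2 and Tnc the intervals of both resolution comparisons admit changes of more than 1 log2 unit.

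Between the BSA livers of both stages, the genes of tenascin-C, thrombospondin-1, periostin and fibronectin were called lower in resolution, calls that depended on single livers, as given below. Of the 9 members 4 were called lower, beside 6.60% of all genes, and 0 higher, beside 2.40%. Thbs1 stood at 4.31, 3.96 and 3.39 CPM in resolution against 21.7, 302.4 and 19.9 CPM in fibrosis (log2 −4.87, SE 1.16, adjusted p = 0.0243). Tnc stood at 5.06, 4.81 and 4.01 CPM against 13.2, 63.4 and 14.2 CPM (log2 −2.69, SE 0.605, adjusted p = 0.0216). Every resolution liver lay below every fibrosis liver for both, and fibrosis liver 2 was far above the other fibrosis livers.

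Postn stood at 17.7, 16.7 and 14.4 CPM against 20.99, 39.7 and 52.3 CPM (log2 −1.21, SE 0.311, adjusted p = 0.0318), and Fn1 at 1954, 2411 and 2374 CPM against 3482, 6497 and 3467 CPM (log2 −0.997, SE 0.282, adjusted p = 0.0415). With Sparc (log2 −0.94, adjusted p = 0.102) and Spon1 (−0.98, adjusted p = 0.145), 6 members did not overlap, beside 16.7% of all genes. Thbs2 (−0.53), Thbs3 (−0.76) and Spon2 (0.27) overlapped between the stages. All 4 calls were lost without fibrosis liver 2, where Thbs1 stood at log2 −2.41 (adjusted p = 0.13) and Tnc at −1.55 (0.0674), and with only these 2 groups in the fit (adjusted p = 0.098 to 0.119). Leaving out any 1 resolution liver lost all 4 as well (adjusted p = 0.0841 to 0.14), and without fibrosis liver 3 Postn lost its call (0.0746).

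Without all 3 fibrosis livers numbered 2, the estimates were log2 −2.43 for Thbs1, −1.57 for Tnc, −1.19 for Postn and −0.65 for Fn1. These livers were set aside because of their Thbs1 and Tnc values, so the estimates are a description and no test. The myofibroblast markers summed to 192.4 to 294.9 CPM in resolution and 353.7 to 1609 CPM in fibrosis, with 6 of 11 tested called lower, and their part in the members' lower levels was not tested. Of 13 tested genes of other matricellular proteins, 4 were called lower, beside 6.60% of all genes, including Thbs4, a thrombospondin of muscle and tendon (0.0715 ± 0.0686 against 1.75 ± 1.77 CPM, log2 −4.26, adjusted p = 0.019), and Mgp, an inhibitor of calcification (3.40 ± 0.377 against 13.5 ± 4.86 CPM, log2 −1.99, adjusted p = 0.0165). Of 12 TGF-beta genes, 4 were called lower. Over all genes the 1214 calls fell to 2, 0 and 1 on leaving out resolution liver 1, 2 or 3, so the calls of these list genes were all lost without liver 2.

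Genes whose log2 level ran most like that of a member are given as a description; the libraries share treatment groups and scaling, so these correlations carry no test. Over the 21 MO and CCl4 livers, Sparc ran with the collagen I genes Col1a2 (r = 0.993) and Col1a1 (0.991), Postn with Cd68 (0.966), a macrophage marker, and Thbs1 with Rrad and Klf6 (0.962 for each). Among the members, the closest pairs there were Postn with Sparc (r = 0.944) and Thbs1 with Tnc (0.942), and the same pairs led over the 18 fibrosis and resolution livers (0.899 and 0.907). Over the 12 cell libraries Thbs2 ran with the mitotic genes Plk1 (0.998) and Cdc20 (0.997), and among the members with Thbs3 (0.986), while Fn1 ran with Itgb8 (0.994) and Thbs1 (0.981). In the cells Spon2 correlated at −0.44 with Postn, −0.135 with Tnc and 0.0377 with Thbs1. Its values with the other tested members were 0.157 (Fn1), 0.364 (Thbs2), 0.445 (Thbs3) and 0.49 (Sparc).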

How the data were processed

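RNA was sequenced from HSC-T6 cells and mouse livers after TruSeq Stranded mRNA preparation, per the labels' protocols. The authors deposited whole-number read counts per gene in 3 tables, a unit settled from the values, whose totals differ between libraries. The submitters' processing notes name mm10 for every library, the rat ones included; which genome the rat reads were counted on is not stated there. For the aligner, counter, annotation and strand setting the sources used here give nothing, so reads shared by overlapping or antisense genes cannot be told apart. Columns were matched to samples by name, and 0 were left over. The rows no_feature and ambiguous, found in 2 tables, were left out; their share of counts was 24.4% to 26.2% for cell libraries, against 5.8% to 8.55% for libraries of the table with MO livers.

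A separate edgeR 4.0.16 fit (R 4.3.3) of all groups, robust and quasi-likelihood with TMM factors, was made per table after filterByExpr (min.count 10, min.total.count 15), which left 10140, 13487 and 14129 genes. The 17 comparisons, of which 1 was added after seeing the data, were adjusted by the Benjamini-Hochberg method over all genes of a comparison. Interaction tests compare CCl4 responses. CPM per kb used merged exons of GENCODE M21, and log2 CPM for correlations had a prior count of 2. The scripts were tested on simulated data. Alternatives were DESeq2 1.42.0, RLE factors, library totals only, no filter, only the groups compared, the replicate number as a block, and leaving out livers or libraries. The members and gene lists were chosen with earlier results of these data known. Named are all members, at most 4 called genes per list and comparison with the largest change, and the 3 genes most like each member in a table.

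The replicate numbers come from the labels. Same-numbered samples deviated together from their group means, with every correlation over 0.1, for the 3 fibrosis comparisons (0.187 to 0.521, 0.474 to 0.595 and 0.274 to 0.708) and the 2 comparisons between CCl4 groups (0.108 to 0.261 and 0.116 to 0.313). These comparisons are called paired here, but the main tests fitted the groups only and did not model the pairing. The replicate number entered only as a block in an alternative fit. All pairs of libraries in a group differed by more than sampling noise: chi-square over its degrees of freedom was at least 1.46 (cells), 10.2 and 11 (livers). With 3 or 4 libraries a group and no statement on separate animals or cultures, the p-values reflect only how much these libraries vary, possibly for technical reasons.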

Additional observations from a re-analysis of the deposited data

Results flagged for a closer look

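Spon2 in knockout livers with WT HMGB1 after CCl4 stood at 12.3 CPM in liver 3, against 6.62 to 7.51 CPM in the other 3 livers. The gap to the nearest of these took 0.846 of the whole range, which is past Dixon's critical value for 4 samples. Tnc in knockout livers with Δ[O] HMGB1 after CCl4 stood at 2.72 CPM in liver 5, against 9.09 to 9.99 CPM in the other 3, with a gap of 0.876 of the range. Of 27 groups of 4 livers tested over the 9 members, these 2 were past the value, and chance alone gives about 1 in 20.

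The CCl4 response differed between knockout livers with WT HMGB1 and WT livers by the interaction test for Thbs1 (log2 −3.03), Spon2 (log2 −1.50) and Postn (log2 1.28). The Spon2 response was near 0 in the knockout livers, where the MO livers held 8.85 ± 0.753 CPM, and 1.41 in WT livers. The Postn response was 2.33 in the knockout livers and 1.05 in WT livers.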

How the results depend on the processing

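No member changed direction with a call in any setting. The number of members called moved past 1.5 times the main count in these cases. In fibrosis livers, [O] against [H] HMGB1 went from 0 to 3 members with DESeq2. BSA livers of both stages went from 4 to 0 with only the groups compared, and ranged from 0 to 4 on leaving out 1 liver. Δ[O] against WT HMGB1 after CCl4 went from 1 to 0 with only the groups compared, and ranged from 0 to 1 on leaving out 1 liver. The difference of CCl4 responses between the constructs ranged from 0 to 1 on leaving out 1 liver.

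With the replicate number as a block, the number of members called stayed at 0, 5, 8 and 8 in the cell comparisons, at 0 for each treatment in fibrosis and resolution and at 4 between the stages. In paired comparisons the block lost the Thbs1 call between CCl4 genotypes (adjusted p = 0.0875) and changed no other call. Elsewhere the numbers were shared labels only, and the block lost Fn1 in the WT HMGB1 livers (adjusted p = 0.126) and Thbs3 in the Δ[O] livers (0.0663), and the cell [H] comparison went from 81 to 39 genes. Every sample correlated best with its own number in the 3 fibrosis comparisons; in the 2 between CCl4 groups 2 of 3 numbers did, and in each unpaired comparison fewer than all.

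Counts over all genes moved as follows. [H] HMGB1 in cells gave 81 genes, 168 without the filter, 140 with DESeq2, 454 with only the groups compared and 13 to 195 on leaving out 1 library. The stages gave 1214, 776 without the filter, 2334 with DESeq2, 91 with only the groups compared and 0 to 2377 on leaving out 1 liver. Δ[O] against WT HMGB1 after CCl4 gave 326, 579 with DESeq2, 108 with only the groups compared and 61 to 492 on leaving out 1 liver. [SO3] HMGB1 in resolution gave 0, 80 with DESeq2 and 49 with only the groups compared. The CCl4 response difference between the constructs gave 0, 85 with DESeq2, 3 with the block and 0 to 1119 on leaving out 1 liver. [O] against [H] HMGB1 in fibrosis gave 0, 278 with DESeq2, 1 with the block and 0 to 16 on leaving out 1 liver. CCl4 against MO with Δ[O] HMGB1 gave 3425, and 2127 without MO liver 2. The CCl4 response difference between knockout and WT livers gave 1906, and 1233, 1213 and 1263 without WT MO liver 1 or 2 or knockout MO liver 2. With library totals as the only scaling, the higher and lower calls went from 32 and 49 to 56 and 45 ([H] in cells), from 2408 and 2045 to 1887 and 2990 ([O] in cells), from 2953 and 3047 to 3997 and 2342 ([SO3] against [O]) and from 324 and 890 to 158 and 1038 (stages). The causes were not tested.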
